A study of Gallus gallus with 16 samples.

Results

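The 100 genes described here are those whose RNA stood furthest above the level of unlabelled neighbouring cells in E2-labelled neural crest cells of the chick embryo at every one of 3 stages. They were chosen by the measured E2 and negative levels themselves. For each gene, counts per 1000000 counts of the library (CPM) were put on a log2 scale as log2(CPM + 1) and averaged over the 2 libraries of a group, and the smallest of the 3 differences between E2 and negative cells was its score. Genes on chromosomes W, Z and 16 and genes spanning 300000 bp or more were set aside, which left 23315 of the 24881 genes in the table, and the 100 with the highest scores were taken. Scores ran from 2.34 down to 0.9432. The 5 genes just inside the limit scored 0.9432 to 0.955 and the 5 just outside it 0.930 to 0.9429, so the limit cuts through a continuous range. In the opposite direction, 182 genes were lower in E2 cells by at least 1 at all 3 stages, against 81 that were higher by as much. The table names genes by Ensembl identifiers only, and the reference list of 25635 chicken genes used here gives no Ensembl identifiers. For lack of this link 0 genes could be matched, so no role can be given here to any of the 100. For the same reason SOX10, FOXD3 and the marker lists of crest, neurons, glia, pigment cells, blood, endothelium, muscle, heart, neural tube, ectoderm and endoderm were not looked up, and the label of the sorted cells was not checked against markers.

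The neural crest arises at the border of the neural plate, leaves the dorsal neural tube and migrates widely. Crest cells from the vagal level, next to the hindbrain, are known to form most of the enteric nervous system and to contribute to the outflow tract of the heart. SOX10 and FOXD3 are transcription factors of early crest cells. E2 is known as an enhancer of SOX10 and NC2 as an enhancer of FOXD3, and a reporter driven by such an element marks cells in which the element is active.

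Wild-type embryos were electroporated with NC2 and E2 reporters, the vagal region was dissected and dissociated, and cells were sorted by fluorescence into DP cells (NC2+, E2+), E2 cells (NC2-, E2+) and negative cells (NC2-, E2-). The labels give citrine as the fluorophore of both reporters. The groups were E2 and negative cells at HH10, and DP, E2 and negative cells at HH18 and at HH25 (Hamburger-Hamilton stages), with 2 libraries each. The first stage is HH10 in the sample records and HH12 in the series text and the column names. It was electroporated at HH4 and both later stages at HH8 or HH9. Between HH10 and the later stages, stage and time of electroporation therefore cannot be told apart. Electroporation does not reach every cell, so negative cells can include crest cells that took up no reporter. Libraries held 4032540 to 45313160 counts and 11693 to 15661 detected genes. Nothing in the labels ties the libraries of a group to separate embryos, and the spread that p-values rest on may be a technical one.

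As the rule required, all 100 genes averaged higher in E2 than in negative cells at each stage. The median difference in log2(CPM + 1) was 1.53 at HH10, 1.39 at HH18 and 1.68 at HH25, and over all 14676 tested genes it was -0.07, 0.11 and 0.07. Summed over the 100 genes, E2 libraries held 4120 and 4010 CPM at HH10, 4878 and 4252 at HH18 and 4099 and 3118 at HH25. Negative libraries held 1106 and 1208, 1912 and 1467, and 1377 and 1139 CPM at the same stages. For 75 genes both E2 libraries lay above both negative libraries at all 3 stages, for 22 at 2 stages and for 3 at 1 stage. Tested one gene at a time (edgeR quasi-likelihood test, Benjamini-Hochberg adjusted over all genes), 8 of the 100 were called higher at HH10, 1 at HH18 and 17 at HH25. The shares of all tested genes called higher in these comparisons were 0.238%, 0.0545% and 1.84%. A total of 22 genes were called at 1 stage or more, 4 of them at 2 stages. The counts of library order and of calls restate the choice of the genes and are given as a description. The share of all tested genes with the same library order is not given here.

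**Figure D1:**
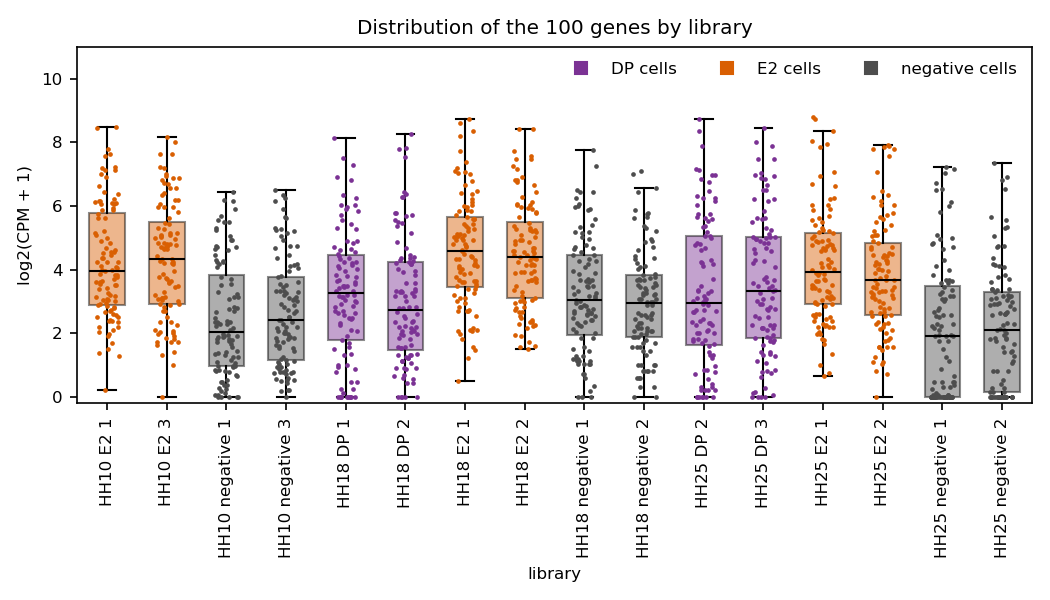
Each column is 1 library, each point 1 of the 100 genes at its log2(CPM + 1), and boxes show the median and quartiles, with whiskers to the last point within 1.5 box lengths. The DP libraries, which took no part in choosing the genes, have medians of 8.63 and 5.64 CPM at HH18 and 6.73 and 9.14 CPM at HH25.

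The highest score, 2.34, belonged to ENSGALG00000023420 (chromosome 7, 16326992 to 16331601, 3 exon intervals on the minus strand; galGal5, as for all positions). Its E2 libraries held 18.04 and 27.2 CPM at HH10, 15.5 and 12.0 at HH18 and 15.9 and 12.3 at HH25. Its negative libraries held 2.84 and 4.34 CPM, 1.82 and 1.98, and 0.395 and 5.03. The differences were nearly equal at the 3 stages, at 2.36, 2.34 and 2.37. In DP cells the gene lay between the other populations, at 6.92 and 4.80 CPM at HH18 and 6.89 and 9.69 CPM at HH25, with no overlap of the libraries of the 3 groups at either stage.

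ENSGALG00000041708 (chromosome 21, 6322863 to 6334599, 5 exon intervals on the plus strand) had the largest HH10 difference of the 10 best-scoring genes, 3.92. It stood at 70.3 and 93.4 CPM in HH10 E2 cells and at 3.46 and 5.61 CPM in HH10 negative cells. With stage its E2 level was 82.3 and 29.8 CPM at HH18 and 31.1 and 21.9 CPM at HH25. The other 8 of the first 10 scored 1.54 to 2.04. They were ENSGALG00000027231, a single-interval gene of 345 bp on chromosome 17 (1143212 to 1143556), ENSGALG00000009537 on chromosome 9, ENSGALG00000007945 on chromosome 24, ENSGALG00000035930 on chromosome 20, ENSGALG00000040241 on chromosome 10, ENSGALG00000009959 and ENSGALG00000015084 on chromosome 1, and ENSGALG00000034585 on chromosome 2.

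Replicates of these genes were not equally close. ENSGALG00000034585 held 33.0 and 32.8 CPM in HH10 E2 cells, against 12.6 and 8.96 CPM in HH10 negative cells. ENSGALG00000027231 held 31.6 and 6.73 CPM in HH18 E2 cells and 0.650 and 4.71 CPM in HH18 negative cells. In CPM, not on the log2 scale, the E2 libraries differed more from each other than the lower of them did from either negative library. ENSGALG00000009537 rested on 2 counts over both HH25 negative libraries.

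**Figure D2:**
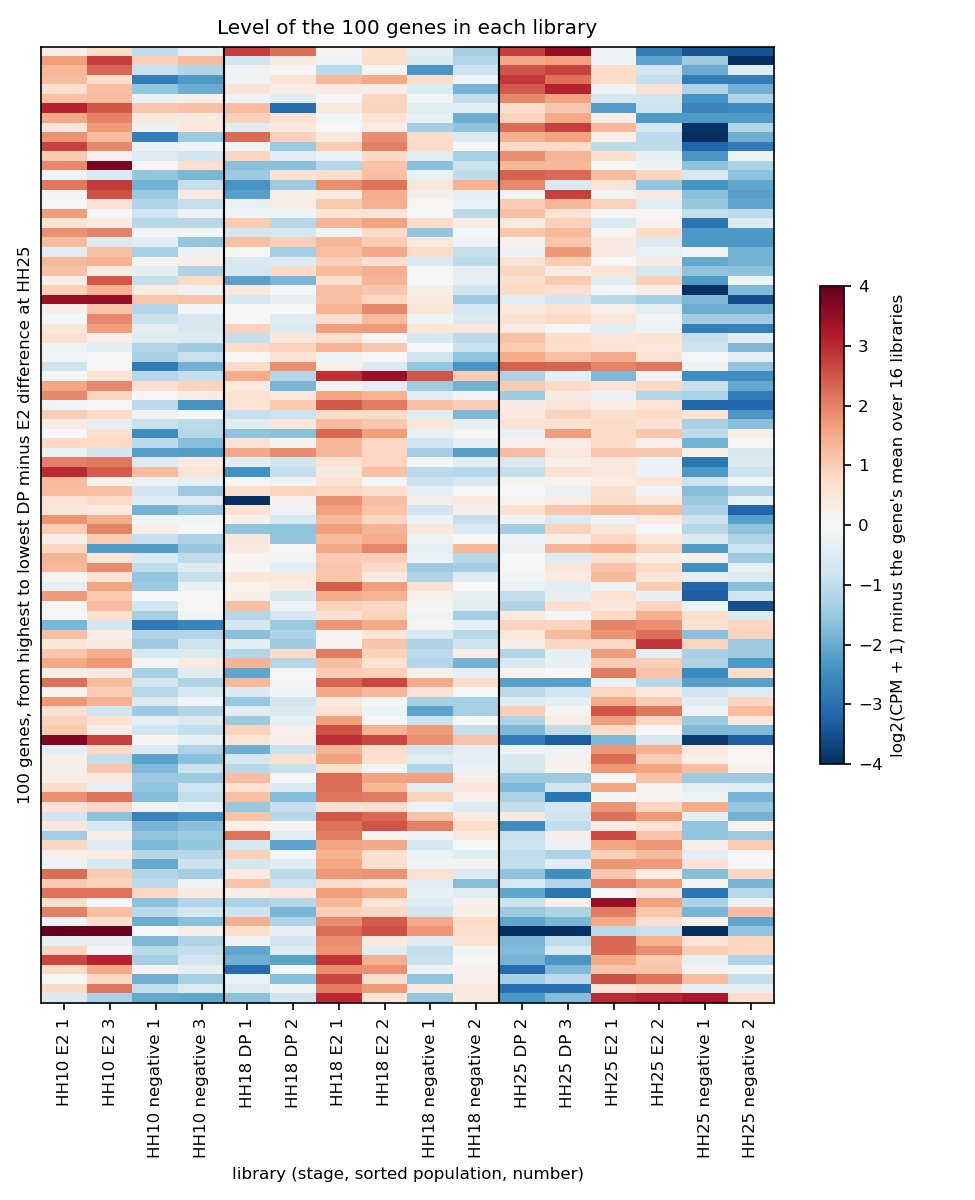
Each row is 1 of the 100 genes and each column 1 library, coloured by log2(CPM + 1) minus the mean of that gene over 16 libraries. Rows run from the highest to the lowest DP minus E2 difference at HH25. By the choice of the genes, E2 columns are on average warmer than the negative columns of the same stage. Single genes, such as ENSGALG00000012123 at HH25, still lie under their own mean in E2 cells. HH18 DP columns are mostly pale or blue, and HH25 DP columns change from red at the top to blue at the bottom.

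DP libraries did not enter the rule. At HH18 the 100 genes as a list stood near the negative level in DP cells and not near the E2 level. DP libraries summed to 2226 and 2217 CPM, against 4878 and 4252 CPM in E2 and 1912 and 1467 CPM in negative cells. The median DP minus E2 difference was -1.51, against -0.05 over all tested genes, and 77 genes had both DP libraries below both E2 libraries, an order that 21.5% of all tested genes showed. The median DP minus negative difference was -0.06, against 0.00 over all tested genes. Both DP libraries lay above both negative libraries for 23 genes (20.3% of all tested genes) and below them for 20 (20.5%). The E2 and negative libraries are those the rule used, so neither difference is independent of the choice of the genes. In sorted bulk cells, fewer expressing cells and less RNA per cell cannot be told apart.

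Single genes passed the test between HH18 DP and E2 cells in 2 cases, both lower in DP cells (0.0954% of all tested genes were called lower). ENSGALG00000041708 held 1.94 and 1.51 CPM in DP cells, against 82.3 and 29.8 CPM in E2 cells. Its log2 fold change was -4.99 ± 0.78 (SE, n = 2 libraries a group, edgeR adjusted p = 0.0110), and its DP libraries also lay below both negative libraries, at 5.07 and 10.4 CPM. ENSGALG00000012006 (chromosome 5, 54764636 to 54860538, 10 exon intervals on the plus strand) held 38.4 and 21.2 CPM in DP cells, against 211 and 178 CPM in E2 cells (log2 fold change -2.69 ± 0.41, edgeR adjusted p = 0.0090). Here too the DP libraries were under the negative ones, at 65.8 and 49.8 CPM. Leaving out E2 library 1 or DP library 2 ended both calls, and each also ended without 1 further library (DP library 1 for ENSGALG00000041708, E2 library 2 for ENSGALG00000012006). DESeq2 called 18 of the 100, each lower in DP cells (1.72% of the genes it tested).

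Between HH18 DP and negative cells 1 member was called, ENSGALG00000012775 (chromosome 2, 63495555 to 63509044, 7 exon intervals on the plus strand). It held 64.5 and 82.7 CPM in DP cells, against 56.1 and 39.1 CPM in E2 and 7.93 and 3.97 CPM in negative cells. DP cells were higher than negative cells by a log2 fold change of 3.53 ± 0.60 (edgeR adjusted p = 0.0154), where 0.0954% of all tested genes were called higher. The call ended without any 1 of the 4 libraries. Both labelled populations lay above both negative libraries. ENSGALG00000007945 (6212347 to 6216461, plus strand, 2 exon intervals) and ENSGALG00000013782 (chromosome 2, 95819538 to 95897002, 13 exon intervals on the minus strand) were 2 of the 6 members whose HH18 DP libraries both exceeded both E2 libraries (14.5% of all tested genes). The first held 24.4 and 53.7 CPM in DP, 16.3 and 9.32 CPM in E2 and 4.16 and 1.98 CPM in negative cells. The second held 75.01 and 51.3, 11.1 and 16.6, and 7.28 and 3.22 CPM, and neither was called between DP and negative cells at this stage.

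At HH25 the list no longer stood at the negative level in DP cells. DP libraries summed to 3147 and 3348 CPM, against 4099 and 3118 CPM in E2 and 1377 and 1139 CPM in negative cells. Genes with high levels weigh most in these sums. The median over the 100 genes was 6.73 and 9.14 CPM in HH25 DP libraries, against 8.63 and 5.64 CPM at HH18. In negative libraries it was 2.76 and 3.33 CPM at HH25, against 7.215 and 6.70 CPM at HH18, so the negative level was itself lower at HH25. Both DP libraries lay above both negative libraries for 54 genes (37.7% of all tested genes) and below them for 14 (24.6%). The median DP minus negative difference was 1.26, against 0.28 over all tested genes. The test called 33 of the 100 higher and 5 lower in DP than negative cells, where 13.6% and 9.96% of all tested genes were called. Without HH25 DP library 2 fewer members were called, and the share of all tested genes called at that setting is not given here. The HH25 negative libraries had 0 counts for 28 and 23 of the 100 genes, more than any other library, and these libraries also entered the rule. TMM and DESeq2 size factors placed the median of all genes 0.157 apart in this comparison and 0.123 apart between DP and E2 cells, shifts smaller than the medians given here.

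The members with the highest fitted fold changes between HH25 DP and negative cells had few or no counts in negative cells. ENSGALG00000003895 (chromosome 17, 6421491 to 6427617, 5 exon intervals on the plus strand) held 47.3 and 30.4 CPM in DP cells, 10.5 and 2.63 CPM in E2 cells, and neither negative library had a count. Taking 3 counts summed over both negative libraries as the floor, it was at least 340-fold higher in DP than negative cells in pooled counts (edgeR adjusted p = 0.00131). ENSGALG00000013782 held 75.4 and 125 CPM in DP and 9.25 and 0.658 CPM in E2 cells, and a single count over both negative libraries (edgeR adjusted p = 3.8e-04). At the other end, ENSGALG00000040582 (chromosome 17, 10543138 to 10636808, 8 exon intervals on the plus strand) had no count in either DP library. It held 10.5 and 12.8 CPM in E2 and 4.99 and 5.35 CPM in negative cells, at least 85.1-fold lower in DP than negative cells (edgeR adjusted p = 4.78e-04). Leaving out any 1 of the 4 libraries ended none of these 3 calls. The HH25 negative libraries also entered the rule, which took genes low in them against E2 cells. The folds and p-values against negative cells are therefore not independent of the choice of the genes. ENSGALG00000012123 (chromosome 5, 5201971 to 5218801, 13 exon intervals on the minus strand) was also called lower, at 0 and 0.107 CPM in DP and 0 and 5.24 CPM in negative cells (edgeR adjusted p = 0.0226). Its groups overlapped, the call ended without either DP library, and without negative library 2 the direction turned (edgeR adjusted p = 0.262). The other 3 members called lower were ENSGALG00000041708 (log2 fold change -2.04 ± 0.69, edgeR adjusted p = 0.0462), ENSGALG00000028810 and ENSGALG00000028958. ENSGALG00000041708 thus stood low in DP cells at both stages, at 2.06 and 1.20 CPM in HH25 DP, 31.1 and 21.9 CPM in HH25 E2 and 8.09 and 3.82 CPM in HH25 negative cells.

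Between HH25 DP and E2 cells the 100 genes split. Both DP libraries lay below both E2 libraries for 49 (25.6% of all tested genes) and above them for 27 (35.6%), and the median difference was -0.46, against 0.17 over all tested genes. The test called 10 lower and 3 higher in DP cells, where 2.61% and 3.88% of all tested genes were called. The rule took genes high in these same HH25 E2 libraries, so the excess of lower members is not independent of the choice of the genes. ENSGALG00000040582 was at least 195-fold lower in DP than E2 cells (edgeR adjusted p = 0.00607). ENSGALG00000002432 (chromosome 6, 4418064 to 4421743, 6 exon intervals on the plus strand) had no count in DP or negative cells and 1.57 and 5.17 CPM in E2 cells. In pooled counts it was at least 56.3-fold lower in DP than E2 cells (edgeR adjusted p = 0.0297). In the other direction, ENSGALG00000013782 was 23.1-fold higher in pooled counts (95% counting interval 19.0 to 28.4, edgeR adjusted p = 0.0263). That interval leaves out the spread between libraries, and the E2 libraries held 9.25 and 0.658 CPM. The fitted log2 fold change of ENSGALG00000013782 was 4.25 ± 0.94. ENSGALG00000037856 (chromosome 12, 17238314 to 17341991, 29 exon intervals on the plus strand) held 79.1 and 121 CPM in DP, 11.6 and 20.9 CPM in E2 and 5.38 and 2.84 CPM in negative cells, with a log2 fold change of 2.53 ± 0.63 between DP and E2 cells (edgeR adjusted p = 0.0366). Every edgeR call in this comparison ended when HH25 DP library 2 or 3 was left out. Fewer members were also called without either E2 library, and the shares of all tested genes at these settings are not given here. The third member called higher was ENSGALG00000031776. The call of ENSGALG00000040582 ended without either DP library, those of ENSGALG00000002432 and ENSGALG00000013782 without either DP library or E2 library 2, and that of ENSGALG00000037856 without any 1 of the 4. DESeq2 with all libraries called 30 lower and 6 higher (11.7% and 11.6% of the genes it tested).

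**Figure D3:**
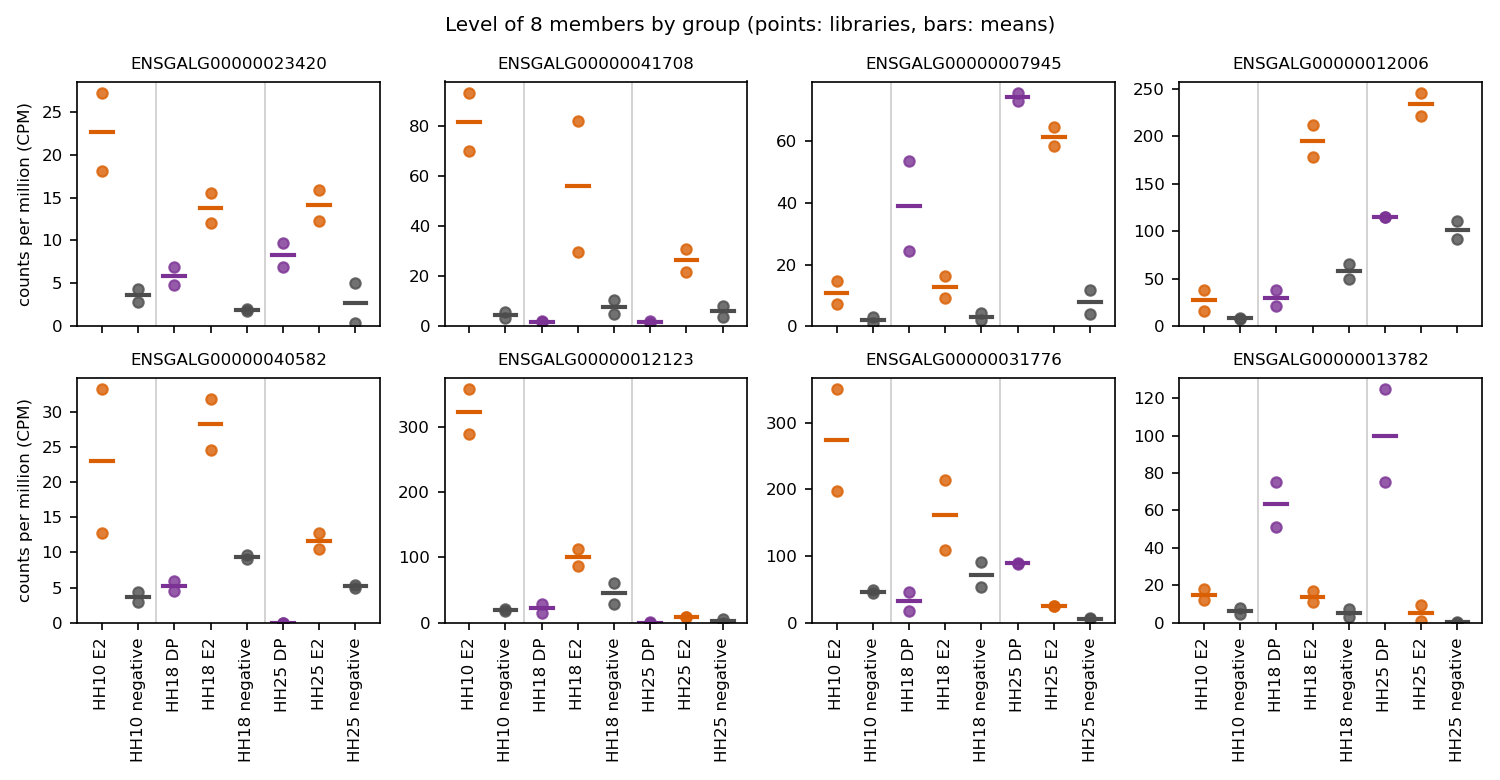
CPM of 8 members by group, on linear axes that start at 0. Points are libraries and bars are means of 2. DP libraries lie between E2 and negative cells for ENSGALG00000023420, at or under negative cells for ENSGALG00000041708 and ENSGALG00000040582, and above E2 cells for ENSGALG00000013782.

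HH25 against HH18 DP cells is the comparison with no library of the rule on either side. Both HH25 libraries lay above both HH18 libraries for 40 genes (31.3% of all tested genes) and below them for 21 (18%), and the median difference was 0.44, against 0.23 over all tested genes. The test called 5 members, 1 higher at HH25 (0.382% of all tested genes) and 4 lower (0.566%). ENSGALG00000012006 was higher at HH25, at 115 and 115 CPM against 38.4 and 21.2 CPM at HH18 (log2 fold change 1.86 ± 0.39, edgeR adjusted p = 0.0408), a call that ended without any 1 of the 4 libraries.

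The 4 lower members had few or no counts in HH25 DP cells. ENSGALG00000010500 (chromosome 6, 35311072 to 35313308, 4 exon intervals on the minus strand) held 1.50 and 0.721 CPM at HH25, against 23.7 and 19.5 CPM at HH18 (log2 fold change -4.41 ± 0.71, edgeR adjusted p = 0.00857). ENSGALG00000012123 held 0 and 0.107 CPM at HH25, against 29.0 and 14.4 CPM at HH18. It was 246-fold lower in pooled counts (95% counting interval 95.7 to 907), with a fitted log2 fold change of -8.18 ± 1.50 (edgeR adjusted p = 0.0201). ENSGALG00000029070 (chromosome 5, 45435444 to 45436310, 3 exon intervals on the plus strand) had no count at HH25, against 10.1 and 3.24 CPM at HH18, at least 95.2-fold lower in pooled counts (edgeR adjusted p = 0.0119). ENSGALG00000040582 had no count at HH25 either, against 4.52 and 5.95 CPM at HH18, at least 87.4-fold lower (edgeR adjusted p = 0.00219). No libraries of the 2 stages overlapped for these genes. The call of ENSGALG00000040582 ended without HH25 DP library 3 and the other 3 ended without either HH25 DP library. Every edgeR call between HH25 and HH18 DP cells ended without HH25 DP library 3. DESeq2 with all libraries called 10 higher and 8 lower (4.63% and 4.64% of the genes it tested). The means of the 4 lower genes named here were lower at HH25 than at HH18 in E2 and in negative cells too.

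Placed on a scale where 0 is the negative mean and 1 the E2 mean of the same stage, the median position of DP cells over the 100 genes was 0.722 at HH25 and -0.0424 at HH18. At HH25 the DP mean was at or above the E2 mean for 38 genes, between the means but nearer E2 cells for 20, nearer negative cells for 16, and at or below the negative mean for 26. At HH18 the same counts were 9, 17, 21 and 53. DP cells were at or below the negative mean at both stages for 22 genes and at or above the E2 mean at both for 7. A further 38 genes were nearer the negative mean or below it at HH18 and nearer the E2 mean or above it at HH25, and 6 had the reverse order. The negative and E2 means of this scale are the values the rule used, so the positions are a description. Both ends of the scale also moved between stages. From HH18 to HH25 the median difference of the 100 genes was -0.89 in negative, -0.63 in E2 and 0.44 in DP cells. Over all tested genes it was -0.07, -0.03 and 0.23. The part of each population in the change of position was not tested. The change between stages was also tested gene by gene, a test added after the data were seen. For DP against E2 cells it called 2 members, where 0.184% of all tested genes were called in either direction. For DP against negative cells it called 18 members upward and 2 downward from HH18 to HH25, where 8.67% and 5.8% of all tested genes were called. The HH25 and HH18 E2 and negative libraries in these tests also entered the rule.

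The DP minus E2 differences of the 2 stages share no library, but the E2 libraries of both stages entered the rule, which took genes high in E2 cells at each. The values that follow are therefore a description and not agreement between independent measures. Over the 100 genes the differences of the 2 stages had a Pearson r of 0.48 and a Spearman rho of 0.45, and over all 14676 tested genes 0.22 and 0.20. These are correlations across genes, which are not independent replicates. DP means were below E2 means at both stages for 60 members (25.9% of all tested genes) and above them at both for 7 (28.1%). They were below at HH18 and above at HH25 for 31, close to the 27.0% of all tested genes, and above at HH18 and below at HH25 for 2 (15.9%).

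**Figure D4:**
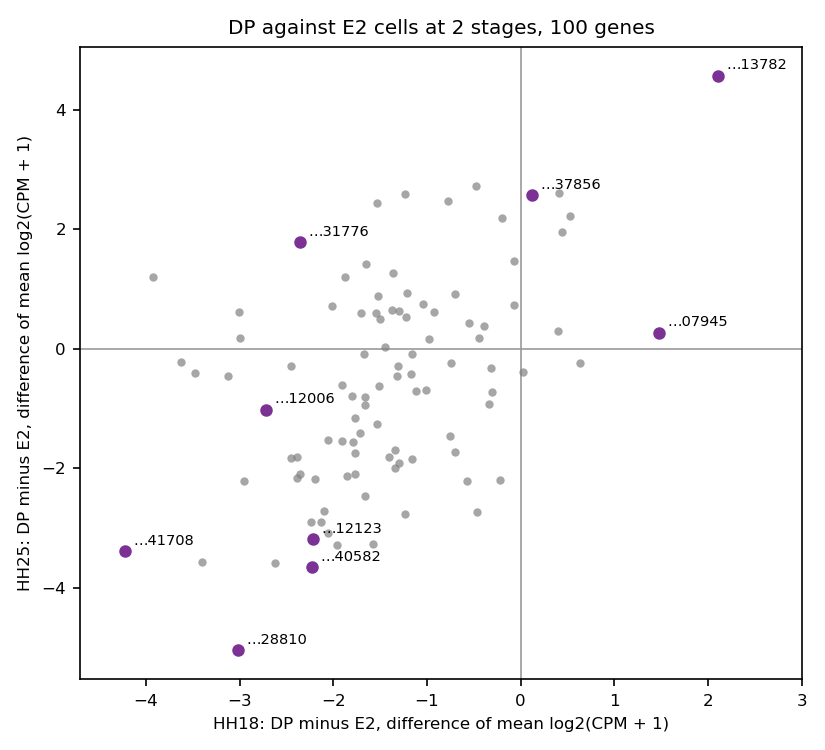
DP minus E2 difference of mean log2(CPM + 1) at HH18 (x axis) and at HH25 (y axis), 1 point for each of the 100 genes, with 9 genes marked by the last 5 digits of their identifiers. Most points lie left of 0 at HH18, spread to both sides of 0 at HH25, with 60 at the lower left and 31 at the upper left.

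Differences between stages within E2 cells, and within negative cells, use only libraries that entered the rule, so they are set beside all tested genes as a description. Within E2 cells the genes did not follow a single course over time. From HH10 over HH18 to HH25 the mean rose at both steps for 21 members, rose and then declined for 38, declined and then rose for 15 and declined at both for 26, where all tested genes gave 29.4%, 24.4%, 15.9% and 27.5%. These words describe the order of the means only. Both HH18 E2 libraries lay above both HH10 E2 libraries for 36 members and below them for 23, where 29.6% and 22.0% of all tested genes showed these orders. Between HH18 and HH10 E2 cells 3 members were called, each higher at HH18, where 3.8% of all tested genes were called higher. ENSGALG00000012006 held 16.4 and 38.2 CPM at HH10, 211 and 178 CPM at HH18 and 246 and 221 CPM at HH25 (log2 fold change from HH10 to HH18 2.89 ± 0.41, edgeR adjusted p = 0.0011). ENSGALG00000012190 (chromosome 7, 30493231 to 30574013, 10 exon intervals on the minus strand) held 3.54 and 1.48, 42.6 and 36.9, and 34.7 and 24.4 CPM (edgeR adjusted p = 0.0461 for HH18 against HH10). ENSGALG00000005774 (chromosome 20, 8921322 to 8968931, 7 exon intervals on the minus strand) held 140 and 117, 427 and 342, and 230 and 219 CPM (edgeR adjusted p = 0.0254). The calls of the last 2 genes ended without either HH10 library or HH18 E2 library 1, and that of ENSGALG00000012190 also without HH18 E2 library 2.

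Both HH25 E2 libraries lay below both HH18 E2 libraries for 51 (24.0% of all tested genes) and above them for 16 (22.3%), and the median difference was -0.63, against -0.03 over all tested genes. Between HH25 and HH18 E2 cells 2 members were called, both lower at HH25, where 0.157% of all tested genes were called lower. ENSGALG00000010500 held 219 and 113 CPM at HH10, 129 and 106.2 CPM at HH18 and 3.94 and 9.78 CPM at HH25 (log2 fold change from HH18 to HH25 -4.08 ± 0.68, edgeR adjusted p = 0.0201). ENSGALG00000031776 (chromosome 26, 1889290 to 1965785, 33 exon intervals on the plus strand) held 350 and 197, 109 and 213, and 24.9 and 25.3 CPM (log2 fold change -2.67 ± 0.50, edgeR adjusted p = 0.0377). Both calls ended without any 1 of the 4 libraries. In DP cells ENSGALG00000031776 had the opposite order of stages, with 88.3 and 89.2 CPM at HH25 and 46.1 and 18 CPM at HH18. That difference within DP cells was not called.

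In negative cells, again from libraries the rule used, both HH18 negative libraries lay above both HH10 ones for 47 members (22.9% of all tested genes) and below them for 18 (35.4%), and the median difference was 0.57, against -0.14 over all tested genes. Both HH25 libraries lay below both HH18 ones for 48 (32.1%) and above them for 11 (28.4%), with a median difference of -0.89, against -0.07. Between HH18 and HH10, 4 members were called, each higher at HH18 (1.96% of all tested genes). They were ENSGALG00000012006, ENSGALG00000012190, ENSGALG00000003895 and ENSGALG00000002432, so 2 of them are also among the 3 called in E2 cells. ENSGALG00000012006 held 7.49 and 9.01 CPM at HH10, 65.8 and 49.8 at HH18 and 91.9 and 111 at HH25 in negative cells (edgeR adjusted p = 0.00106 for HH18 against HH10), a call that no single left-out library ended. The calls of the other 3 ended without HH10 library 1 or HH18 library 1, and also without HH10 library 3 for ENSGALG00000002432, without HH18 library 2 for ENSGALG00000003895 and without either for ENSGALG00000012190. ENSGALG00000002432 had no count in negative cells at HH10 or HH25.

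Between HH25 and HH18 negative cells 19 members were called, each lower at HH25, where 9.46% of all tested genes were called lower. The count fell without HH18 negative library 1 and rose without HH25 negative library 2. Shares of all tested genes called at these settings are not given here. ENSGALG00000009929 (chromosome 27, 3504160 to 3508692, 2 exon intervals on the plus strand) had no count at HH25, against 30.6 and 10.4 CPM at HH18, at least 201-fold lower in pooled counts (edgeR adjusted p = 0.00317). ENSGALG00000013869 (chromosome 3, 55035015 to 55055817, 7 exon intervals on the plus strand) had none either, against 19.0 and 16.4 CPM at HH18, at least 173-fold lower (edgeR adjusted p = 9.23e-04). No single left-out library ended either call. In labelled cells of HH25 ENSGALG00000013869 was present, at 10.1 and 11.7 CPM in DP and 9.64 and 11.9 CPM in E2 cells.

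Per kb of exon, a scale on which genes can be compared, the 100 genes had a median of 11.6 CPM per kb over the 6 E2 libraries and reached down to 0.899. Averaged over the 3 stages, the highest was ENSGALG00000028810 (chromosome 15, 8014553 to 8015183, 3 exon intervals on the minus strand), at 166 CPM per kb. By stage its E2 mean was 18.2 CPM per kb at HH10, 177 at HH18 and 303 at HH25, and it was the highest of the 100 at HH25 only. At HH10 the highest were ENSGALG00000012123 at 127 CPM per kb and ENSGALG00000010500 at 122, and at HH18 ENSGALG00000005774 at 185. The libraries of ENSGALG00000028810 were uneven, at 128 and 22.2 CPM in HH18 E2 cells and 148 and 25.6 CPM in HH25 negative cells. DP libraries held 4.06 and 8.04 CPM at HH18 and 2.22 and 3.76 CPM at HH25, below both E2 libraries of the same stage. Next came ENSGALG00000028958 (chromosome 21, 566976 to 570600, 8 exon intervals on the plus strand) at 152 CPM per kb. It held 24.9 and 44.4 CPM in HH25 DP cells, 449 and 241 CPM in HH25 E2 cells and 132 and 163 CPM in HH25 negative cells, so DP cells were the lowest of the 3 populations. The third was ENSGALG00000005774 at 118 CPM per kb, which at HH25 held 330 and 258 CPM in DP, 230 and 219 CPM in E2 and 90.3 and 46.0 CPM in negative cells, so DP cells were the highest.

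The genes were spread over 27 chromosomes. Chromosome 2 held 12, chromosome 5 held 9, chromosomes 1, 3 and 4 held 7 each and chromosome 21 held 6. Those 6 are 2.39% of the 251 tested genes that the rule could take on chromosome 21, where the 100 are 0.726% of all such genes. Among chromosomes with members this share ran from 0.253% on chromosome 14 to that of chromosome 21, and chromosome 24 was close to it at 2.29%. No 2 members were next to each other in the order of genes. The closest pair, ENSGALG00000028958 and ENSGALG00000032060, lay 40987 bp apart on the plus strand of chromosome 21. The median genomic span was 19700 bp, against 11360 bp over the 13775 tested genes that the rule could take, and 25 of the 100 spanned at least 50000 bp, against 14.5% of those genes. Exon length was similar, with a median of 1822 bp against 1872 bp, as was the number of exon intervals, 7 against 8. The median level over 16 libraries was 11.6 CPM, against 17.1 CPM. The spans of 12 members overlap another gene of the table, 7 of them on the same strand. The strand setting of the counting is not given in the sources used here, so how reads in those overlaps were counted is not known. The overlapping gene with the most counts, 84525 over all libraries, lies on the strand opposite to ENSGALG00000015746. ENSGALG00000009537, ENSGALG00000015084, ENSGALG00000034585, ENSGALG00000012006, ENSGALG00000003895 and ENSGALG00000029070 are also among these 12. Of the genes in this last list, only ENSGALG00000034585 overlaps a gene with many counts, 21653 over all libraries, on its own strand.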

How the data were processed

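RNA was sequenced in 16 libraries, 2 in each of 8 groups. Per the labels' protocols, cDNA was made with a SMART-Seq v4 low-input kit and sequenced as 40 bp read pairs. The deposited table holds raw counts per gene, read as not normalized from their whole numbers and unequal column totals. Per the submitters' processing notes, the tools listed are featureCounts, Subread 1.4.5, STAR 2.4.2a and DESeq2, and the build is galGal5. The exon length column (other unit, bases) is as deposited.

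All libraries entered 1 fit in edgeR 4.0.16 (R 4.3.3; quasi-likelihood F test, TMM factors of 0.884 to 1.12, filterByExpr, which kept 14676 genes and all 100 members), 1 mean per group, which left 8 residual degrees of freedom. A call is an adjusted p below 0.05. SE is the log2 fold change over the root of its F value. Levels are CPM of the column sums. Intervals and floors (3 counts) cover counting error only. A fold given as at least sets the pooled counts of the higher group against the floor, and is no bound for each library. DESeq2 1.42.0 was an alternative. The fit was tested on simulated data. Members, lists and tests were chosen with earlier results of these data known, and the tests of differences between stages were added after the data were seen. Named genes were the 10 highest scores, the 3 highest levels per kb and the called members, shortened to the 2 highest and 2 lowest where more than 5 were called. Replicate numbers are not stated to pair libraries.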

Additional observations from a re-analysis of the deposited data

Results flagged for a closer look

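The DP minus E2 difference changed between stages for 2 of the 100 genes (edgeR test of HH25 minus HH18, where 0.184% of all tested genes were called in either direction). ENSGALG00000031776 had a DP minus E2 difference in log2(CPM + 1) of 1.78 at HH25 and -2.36 at HH18, a change of 4.14 (edgeR adjusted p = 0.0306). For ENSGALG00000040582 the differences were -3.66 and -2.23, a change of -1.42 (edgeR adjusted p = 0.0306). Each of these calls ended without 6 of the 8 libraries, taken 1 at a time. The E2 libraries of both stages also entered the rule. The adjusted p-values belong to the fitted counts and not to these differences. For ENSGALG00000040582, with no count in HH25 DP cells, the fitted change was -8.43 on the log2 scale, which depends on the prior count, while the pseudocount of 1 CPM sets the size of the difference printed here. The same holds below for the genes with no count in a group.

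The DP minus negative difference changed between stages for 20 of the 100 genes, 18 upward and 2 downward, where 8.67% and 5.8% of all tested genes were called. The negative libraries of both stages also entered the rule, so these counts are not independent of the choice of the genes. The count fell without HH18 negative library 1 or HH25 DP library 3 and rose without HH25 negative library 2. The shares of all tested genes called at these settings are not given here. ENSGALG00000031776 changed by 5.0, with a difference of 3.77 at HH25 and -1.22 at HH18 (edgeR adjusted p = 0.00222). ENSGALG00000003895 changed by 5.35 and ENSGALG00000013782 by 3.16, and ENSGALG00000040582 by -1.88 (edgeR adjusted p = 0.00485). ENSGALG00000012775, which was highest in HH18 DP cells, changed by -2.38. Its call ended without any 1 of 7 libraries, and that of ENSGALG00000020505 without any 1 of 4. No single left-out library ended the calls of ENSGALG00000003895 and ENSGALG00000040582. For the other genes called, this is not given here. The changes were 5.72 for ENSGALG00000043172, 3.85 for ENSGALG00000013869, 3.42 for ENSGALG00000001611 and 3.37 for ENSGALG00000003819. They were 3.27 for ENSGALG00000009929, 3.21 for ENSGALG00000010598 and 3.16 for ENSGALG00000004083. They were 2.87 for ENSGALG00000009568, 2.68 for ENSGALG00000037856 and 2.63 for ENSGALG00000020505. They were 2.53 for ENSGALG00000011493, 2.44 for ENSGALG00000004146 and 2.11 for ENSGALG00000011176. They were 1.96 for ENSGALG00000007157 and 1.95 for ENSGALG00000001608. The DP mean of ENSGALG00000013869, ENSGALG00000010598, ENSGALG00000009929 and ENSGALG00000007157 was not higher at HH25 than at HH18. In negative cells their HH25 minus HH18 differences were -4.22, -3.21, -4.25 and -2.44. The DP mean of the other upward genes was higher at HH25, and the negative mean of every upward gene was lower. The HH25 negative libraries, with 28 and 23 of the 100 genes at 0 counts, enter each of these values, and the part of these zeros was not tested.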

How the results depend on the processing

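With DESeq2 size factors in place of TMM, every count of called members stayed within 1.5 times its value. Without the filter on low counts, 2 members were called between HH18 DP and negative cells and 5 between HH18 and HH10 E2 cells, and the other counts stayed within 1.5 times. With only the compared groups in the fit, counts were 2 for HH18 DP against negative, 24 for HH25 DP against negative, 0 for HH18 DP against E2, 25 for HH25 DP against E2, 1 for HH25 against HH18 DP, 0 for HH18 against HH10 E2, 22 for HH18 against HH10 negative and 11 for HH25 against HH18 negative cells. They were 0, 9 and 0 for E2 against negative cells at HH10, HH18 and HH25, and 0 and 12 for the change between stages of DP against E2 and of DP against negative cells. DESeq2 called 7, 18, 36, 18, 13, 7, 16 and 34 members for HH18 DP against negative, HH18 DP against E2, HH25 DP against E2, HH25 against HH18 DP, HH18 against HH10 E2, HH25 against HH18 E2, HH18 against HH10 negative and HH25 against HH18 negative cells. It called 35, 6 and 39 for E2 against negative cells at the 3 stages and 12 for the change of DP against E2. The share of all genes called moved with the setting too. For genes lower in HH25 DP than E2 cells it was 2.61% in edgeR and 11.7% in DESeq2. Shares are not given for most counts of this section, so these counts describe the settings and not the members. The cause of these shifts was not tested.

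Leaving out 1 library gave 0 to 1 members for HH18 DP against negative, 25 to 39 for HH25 DP against negative, 0 to 2 for HH18 DP against E2, 0 to 10 for HH25 DP against E2 and 0 to 6 for HH25 against HH18 DP. It gave 1 to 4 and 0 to 0 for HH18 against HH10 and HH25 against HH18 E2 cells, and 1 to 2 and 11 to 30 for the same stages of negative cells. E2 against negative cells gave 0 to 6, 0 to 0 and 5 to 24 at the 3 stages, and the changes between stages 0 to 3 for DP against E2 and 9 to 32 for DP against negative cells. With 1 library left in a group, that library is assumed to vary like the other groups. The difference between HH25 DP and negative cells for ENSGALG00000012123 turned to 3.54 (log2 fold change, edgeR adjusted p = 0.262) without HH25 negative library 2, the library that held its counts, and lay at -8.51 to -4.63 without another of the libraries compared. Of the rule's 100 genes, 88 and 89 were chosen with pseudocounts of 0.5 and 2 CPM, 92 with TMM library sizes and 70 to 85 without 1 library.

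Libraries with the same number are not known to share embryos, and their deviations correlated at -0.134 to 0.285. With the replicate number as a block, 4 members were called at HH10 and 2 at HH18 between E2 and negative cells, and the other counts between groups with the same numbers changed by less than 1.5 times. Groups that share fewer than 2 numbers were compared in an edgeR fit of all 16 libraries with the number as a block and 6 residual degrees of freedom, added after the data were seen. It called 4 members for HH25 DP against E2, 3 for HH25 against HH18 DP and 1 for HH18 against HH10 negative cells. For the change between stages of DP against E2 it called 0. The counts of the other 3 such comparisons, 32, 2 and 16, stayed within 1.5 times. The HH18 negative libraries were the shallowest, and the part of depth in the counts of calls was not tested.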
